A study of Mus musculus with 8 samples.

Results

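The nucleolar genes of ribosome biogenesis described here are 41 mouse genes whose proteins transcribe ribosomal RNA, modify and cut it, or build the small and the large ribosomal subunit in the nucleolus. They were listed by name, and each was found in the data by its Ensembl identifier and by its exon boundaries. All 41 had a value, out of 14204 genes with a value, and 40 had a mean of at least 0.5 FPKM (a transcript level scaled to transcript length and to the mapped fragments of the sample) and entered the test. The exception was Heatr1, a component of the small subunit processome, for which only 1 transcript end was listed, at 1.60 FPKM in WT sample 2 and at most 0.151 FPKM in the other samples.

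RNA sequencing was done on crypt organoids, small epithelial cultures grown in Matrigel from isolated crypts of the mouse small intestine. There were 4 samples from wild type littermates (WT) and 4 samples from MG53-TG mice, which overexpress MG53 globally. MG53, also called Trim72, is a membrane repair protein of muscle. The labels give a genotype of wt or mg53-tg and no treatment, age or sex, and do not say whether the samples of a group come from separate animals or cultures, so p-values measure the spread between these samples only. The study's text on organoid transcriptomes also names mice that carried an Lgr5 reporter in both groups, an allele the labels do not list.

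Ribosomes are made in the nucleolus, where RNA polymerase I copies the ribosomal RNA genes into a long precursor. Small nucleolar RNAs (snoRNAs) guide chemical modification of this precursor: those of the box C/D class act with the methyltransferase fibrillarin and those of the box H/ACA class with the pseudouridine synthase dyskerin. Large assemblies of proteins and the U3 snoRNA then fold and cut the precursor, and separate sets of factors mature each subunit. In the intestinal epithelium, growing stem and progenitor cells of the crypt are known for high ribosome production, and MYC is known to drive many of these genes.

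The targeted gene followed the labels. Trim72 was not listed in any of the 4 WT samples, and its level in MG53-TG samples 1 to 4 was 16.4, 27.4, 31.9 and 36.5 FPKM. Epithelial markers were present in every sample but not level between groups: Epcam was at 398 to 490 FPKM in WT and 410 to 507 FPKM in MG53-TG, Cdh1 at 217 to 228 and 120.3 to 134 FPKM, and Vil1 at 98.9 to 106 and 182 to 251 FPKM. The leukocyte gene Ptprc did not exceed 0.000508 FPKM. The summed FPKM over transcript starts was 269094 to 284330 in the 8 samples, read depth is unknown, and the size factors of the WT samples (1.08 to 1.09) were above those of MG53-TG samples 1 to 4 (1.001, 1.04, 0.8996 and 0.876). Over all genes tested the median log2 fold change was -0.17, and a rescaling of the samples by median of ratios moved it to -0.0076, so fold changes are also given after that rescaling. MG53-TG samples 3 and 4 stood farther from WT than samples 1 and 2: their median gene differed from the WT mean by -0.23 and -0.25 on the log2 scale, against -0.11 and -0.07.

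Ribosome biogenesis genes were lower in MG53-TG organoids. Of the 40 members tested, 22 fell and none rose (limma on log2(FPKM + 1), Benjamini-Hochberg adjusted p at most 0.05 over 10992 genes), and none was higher at an unadjusted p under 0.05. The background was large: 28.8% of all genes tested were lower and 15.6% higher by the same rule, against 55.0% of the members lower. The members were chosen with earlier results of these data known, so these shares describe the list and do not test it. The mean was lower in MG53-TG for 39 of 40 members. The median log2 fold change of the members was -0.70, and the median member stood at 61.7% of its WT mean. After rescaling by median of ratios, 18 members were lower and 1 was higher, beside 20.2% and 20.3% of all genes, with a median of -0.52 for the members. The 4 that lost their call there were Ddx21, Wdr12, Noc4l and Nop14. In 21 members all 4 MG53-TG samples were below all 4 WT samples, which held for 28.8% of all genes tested. In bulk samples, fewer cells of a type and less RNA per cell cannot be told apart.

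**Figure D1:**
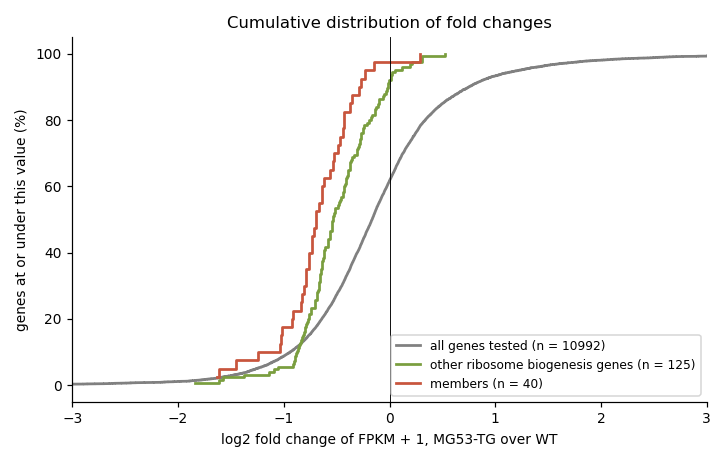
Cumulative share of genes (vertical axis, %) at or under a given log2 fold change of FPKM + 1, MG53-TG over WT (horizontal axis), for all 10992 genes tested, 125 other ribosome biogenesis genes and the 40 members tested. The curve of the members lies to the left, with a median of -0.70 against -0.17 for all genes.

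Of the 4 abundant nucleolar proteins 2 fell (50%, beside 28.8% of all genes), and 1 after median-of-ratios scaling (beside 20.2% of all genes). Npm1 had the highest level of all members. Npm1 (nucleophosmin, a nucleolar chaperone that shuttles ribosomal particles; chr11:33152287-33163206, minus strand, GRCm38) was listed at 703, 593, 616 and 555 FPKM in WT samples 1 to 4 and, in the same order, at 282, 267, 196 and 172 FPKM in the MG53-TG group. Every MG53-TG sample was below every WT sample. The mean went from 617 ± 63.0 to 229 ± 53.7 FPKM (SD, n = 4 each), with a log2 fold change of -1.45 ± 0.17 (SE) and an adjusted p of 0.000227 in limma, and in the exact permutation test p was 0.0286, the smallest that 4 against 4 samples allow. The helicase Ddx21 fell from 40.4 ± 3.45 to 24.4 ± 10.7 FPKM (log2 fold change -0.81 ± 0.28, adjusted p = 0.0413), without overlap. Its call was lost when any WT sample or MG53-TG sample 3 or 4 was left out (adjusted p 0.0701 to 0.108) and when low genes were not filtered (0.0592).

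Nucleolin and Nopp140 did not pass the test. Ncl (nucleolin, which binds ribosomal DNA chromatin and the precursor RNA) was at 128, 119, 112 and 122 FPKM in WT and at 82.3, 81.5, 153 and 41.4 FPKM in MG53-TG. Thus 3 MG53-TG samples lay below WT and sample 3 lay above it, with a log2 fold change of -0.56 ± 0.32 and an adjusted p of 0.183. In that sample the end of the Ncl transcript was at 10.7 FPKM against 153 for its starts, a ratio of 14.3, and without it the log2 fold change was -0.87 (adjusted p = 0.0244). Nolc1 (Nopp140, a chaperone of snoRNA-protein particles) ranged from 36.1 to 65.4 FPKM in WT and from 15.0 to 46.4 FPKM in MG53-TG (log2 fold change -0.91 ± 0.38, adjusted p = 0.0775). Without MG53-TG sample 1 its adjusted p was 0.0251.

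**Figure D2:**
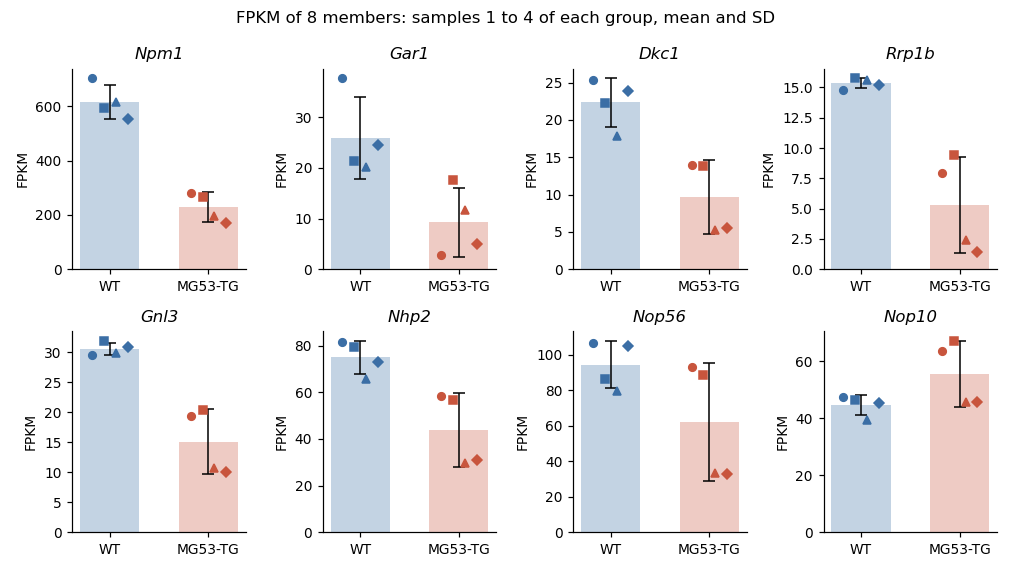
FPKM (vertical axis, from 0) of 8 members in WT and MG53-TG organoids. Points are samples 1 to 4 (circle, square, triangle, diamond), bars the mean and whiskers the SD. Npm1, Gar1, Dkc1, Rrp1b, Gnl3 and Nhp2 do not overlap between groups, whereas Nop56 and Nop10 do.

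None of the 3 RNA polymerase I subunits passed the test in limma, beside 28.8% of all genes lower. Each had a lower mean in MG53-TG, and 1 of the 3 had an unadjusted p under 0.05. Polr1c, a subunit shared with RNA polymerase III (chr17:46243920-46248054, minus strand), was at 9.66, 15.9, 11.4 and 23.4 FPKM in WT and at 10.3, 9.88, 6.90 and 12.2 FPKM in MG53-TG, so the groups overlapped (log2 fold change -0.52 ± 0.27, adjusted p = 0.139). The catalytic subunits Polr1a and Polr1b had log2 fold changes of -0.49 ± 0.24 and -0.66 ± 0.29, with adjusted p of 0.133 and 0.0896. In MG53-TG sample 2 the level of Polr1b was 13.5 FPKM, and it was between 4.06 and 8.88 FPKM in the other MG53-TG samples. Without sample 2 its log2 fold change was -0.92 (adjusted p = 0.0122). The intervals of the 3 log2 fold changes (95%) reached from -1.31, -1.13 and -1.04 for Polr1b, Polr1c and Polr1a to -0.01, 0.08 and 0.06.

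Mammalian snoRNA genes commonly lie in introns of other genes, some members among them. In the GENCODE annotation, 6 of 41 members enclosed a named snoRNA gene on the same strand (14.6%), against 60 of the 10538 protein-coding genes tested (0.569%). These hosts were Ncl, Nop56, Nop58, Wdr43, Tsr1 and Gnl3, with 11 named snoRNAs. Every row of Nop56 and of Tsr1 in the deposited tables bore the identifier of the snoRNA inside it, Snord57 and Snord91a, so these values were recovered by exon boundaries only. Both snoRNAs are shown from the GENCODE transcripts (GRCm38), with those inside Ncl and Gnl3 for comparison. Capitals mark the box C letters TGATGA within the first 25 bases and the box D letters CTGA within the last 20 bases, on the strand of the RNA.
Snord57 in Nop56 (chr2:130278016-130278087, plus strand): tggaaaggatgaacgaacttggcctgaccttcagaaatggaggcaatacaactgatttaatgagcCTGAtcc
Snord91a in Tsr1 (chr11:74905424-74905516, plus strand): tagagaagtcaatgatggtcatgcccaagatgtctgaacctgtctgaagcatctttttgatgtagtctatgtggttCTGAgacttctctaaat
Snord82 in Ncl (chr1:86356261-86356330, minus strand): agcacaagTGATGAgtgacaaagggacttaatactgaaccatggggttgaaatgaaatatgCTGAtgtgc
Snord69 in Gnl3 (chr14:31014287-31014366, minus strand): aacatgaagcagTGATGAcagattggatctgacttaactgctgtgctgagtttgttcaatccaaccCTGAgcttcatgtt
The exact box C letters were present in 6 of 10 Snord genes of the members and in 71.4% of 98 annotated Snord genes, and the box D letters in 9 of 10 and in 98.0%. Among the 6 hosts, 2 fell (Gnl3 and Wdr43; 33.3%, near the 28.8% of all genes), with a median log2 fold change of -0.65, and among the 34 other members tested 20 fell, with a median of -0.70, a difference that was not tested.

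Of the 4 box C/D and U3 proteins, 2 fell (50%, beside 28.8% of all genes). Nop56 (a core protein of every box C/D particle; chr2:130274430-130279313, plus strand), the highest of them, was at 107, 86.6, 79.9 and 105 FPKM in WT and at 93.4, 88.8, 33.2 and 33.0 FPKM in MG53-TG. Its MG53-TG samples split, 2 within the WT range and 2 far below it, and the difference did not pass (log2 fold change -0.76 ± 0.36, adjusted p = 0.116). It passed without MG53-TG sample 1 (-1.01, adjusted p = 0.0426) and when its end was used in place of its starts (-1.003, adjusted p = 0.0464). Its partner Nop58 (chr1:59684971-59719044, plus strand) was at 7.89, 10.7, 12.9 and 12.05 FPKM in WT and at 8.96, 7.91, 11.8 and 9.97 FPKM in MG53-TG. Nop58 had a log2 fold change of -0.15 ± 0.17 (95% interval -0.54 to 0.24, adjusted p = 0.501), which turned to 0.024 after median-of-ratios scaling.

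Rrp9, which belongs to the U3 particle alone, was lower in every MG53-TG sample, at 9.54 ± 2.57 FPKM against 15.1 ± 0.951 FPKM (log2 fold change -0.64 ± 0.17, adjusted p = 0.0151). Fbl (fibrillarin; chr7:28169710-28179269, plus strand) was at 43.4, 70.4, 46.3 and 38.8 FPKM in WT and at 31.9, 32.8, 21.5 and 17.7 FPKM in MG53-TG (log2 fold change -0.92 ± 0.24, adjusted p = 0.0149). In WT sample 2, however, 54.6 FPKM came from a start that matched no annotated exon and was listed in no other sample. With annotated starts alone WT sample 2 was at 15.8 FPKM, the lowest of all 8 samples, and the call was lost (log2 fold change -0.40, adjusted p = 0.377).

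Of the 4 box H/ACA proteins 3 fell (75%, beside 28.8% of all genes). The fourth, Nop10, was the single member tested with a higher mean in MG53-TG. Gar1 (chr3:129824912-129831396, minus strand) was at 37.7, 21.4, 20.1 and 24.6 FPKM in WT and at 2.80, 17.6, 11.6 and 4.92 FPKM in MG53-TG. The groups did not overlap, and the mean went from 26.0 ± 8.07 to 9.25 ± 6.74 FPKM (log2 fold change -1.62 ± 0.47, adjusted p = 0.0215). Without WT sample 1 or MG53-TG sample 4 its log2 fold changes were -1.43 and -1.44, with adjusted p of 0.0611 and 0.0568. In MG53-TG sample 1, the lowest, the end of Gar1 was at 0.0040 FPKM against 2.80 FPKM for its starts.

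Dkc1 (dyskerin, the enzyme of the box H/ACA particle; chrX:75095854-75109777, plus strand) was at 25.4, 22.3, 17.9 and 23.9 FPKM in WT and at 14.0, 13.9, 5.29 and 5.47 FPKM in MG53-TG. All MG53-TG samples were lower, and the mean went from 22.4 ± 3.25 to 9.66 ± 4.95 FPKM (log2 fold change -1.25 ± 0.32, adjusted p = 0.0126). Nhp2 (chr11:51619735-51623714, plus strand), the highest of this group, was at 81.6, 79.3, 65.9 and 73.1 FPKM in WT and at 58.3, 56.7, 29.5 and 30.8 FPKM in MG53-TG, again without overlap. Its log2 fold change was -0.83 ± 0.23 (adjusted p = 0.0204), and the adjusted p was 0.0504 to 0.0543 when WT sample 1 or 2 or MG53-TG sample 3 or 4 was left out.

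The smallest protein of the particle had a mean that differed in the other direction. Nop10 (chr2:112261926-112263269, plus strand) was at 47.5, 46.5, 39.5 and 45.5 FPKM in WT and at 63.7, 67.1, 45.6 and 45.6 FPKM in MG53-TG. MG53-TG samples 1 and 2 were above all WT samples, while samples 3 and 4 were within the WT range. The log2 fold change was 0.29 ± 0.15 (95% interval -0.05 to 0.62, adjusted p = 0.149), and it passed as higher only after median-of-ratios scaling (0.47, adjusted p = 0.0102).

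Factors of the small subunit, most of which form the processome on the early precursor, were lower in 9 of 15 cases and higher in none, with a median log2 fold change of -0.62 (all genes: 28.8% lower, median -0.17). Utp20 (a scaffold of the processome; chr10:88746607-88826804, minus strand) had the largest fall of the group, from 8.74, 8.04, 6.56 and 7.63 FPKM in WT to 4.77, 5.17, 2.27 and 1.91 FPKM in MG53-TG. Its groups did not overlap (log2 fold change -1.02 ± 0.25, adjusted p = 0.0117). The WD-repeat proteins Wdr3 and Wdr43 fell by 0.83 and 0.73 on the log2 scale (adjusted p = 0.00834 and 0.00689), and Utp14a, Utp18 and the helicase Ddx10 fell by 0.77, 0.69 and 0.70 (adjusted p = 0.0167, 0.0113 and 0.00706).

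Utp14a was the steadiest of these in WT, at 19.4 to 19.98 FPKM, and at 7.66 to 15.7 FPKM in MG53-TG. The processome GTPase Bms1 fell from 15.2 ± 0.589 to 9.71 ± 1.99 FPKM (log2 fold change -0.62 ± 0.14, adjusted p = 0.00828). Noc4l and Nop14, which act as partners on the early small subunit, passed narrowly (log2 fold changes -0.71 and -0.43, adjusted p = 0.0341 and 0.0430). Of 19 alternatives, Noc4l lost its call in 8 and Nop14 in 10, among them median-of-ratios scaling (adjusted p = 0.0606 and 0.108). Both lost it when WT sample 2, 3 or 4 or MG53-TG sample 3 or 4 was left out (adjusted p 0.0610 to 0.107), Noc4l also without MG53-TG sample 1 (0.0626) and Nop14 also without WT sample 1 (0.0847).

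The other 6 small subunit factors tested did not pass. Pno1 (which binds the cut site at the end of the small subunit RNA; chr11:17203198-17211568, minus strand), the highest of the group, was at 39.1, 37.5, 33.2 and 33.7 FPKM in WT and at 34.0, 31.7, 21.8 and 25.4 FPKM in MG53-TG (log2 fold change -0.35 ± 0.15, adjusted p = 0.0785). MG53-TG sample 1 lay within the WT range, and without it the adjusted p was 0.0342. Ltv1, Tsr1 and Rrp12, which are known to act late on the small subunit, had log2 fold changes of -0.29, -0.54 and -0.37, with adjusted p of 0.183, 0.245 and 0.122. Utp4 of the processome and the RNA acetyltransferase Nat10 were at -0.47 and -0.44 (adjusted p = 0.0598 and 0.0792). Utp4 did not overlap between groups, at 21.9 to 23.0 FPKM in WT and 11.9 to 21.6 FPKM in MG53-TG, and passed without MG53-TG sample 1 or 2 (adjusted p = 0.0166 and 0.0442), whereas Nat10 passed without MG53-TG sample 1 (0.0422).

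**Figure D3:**
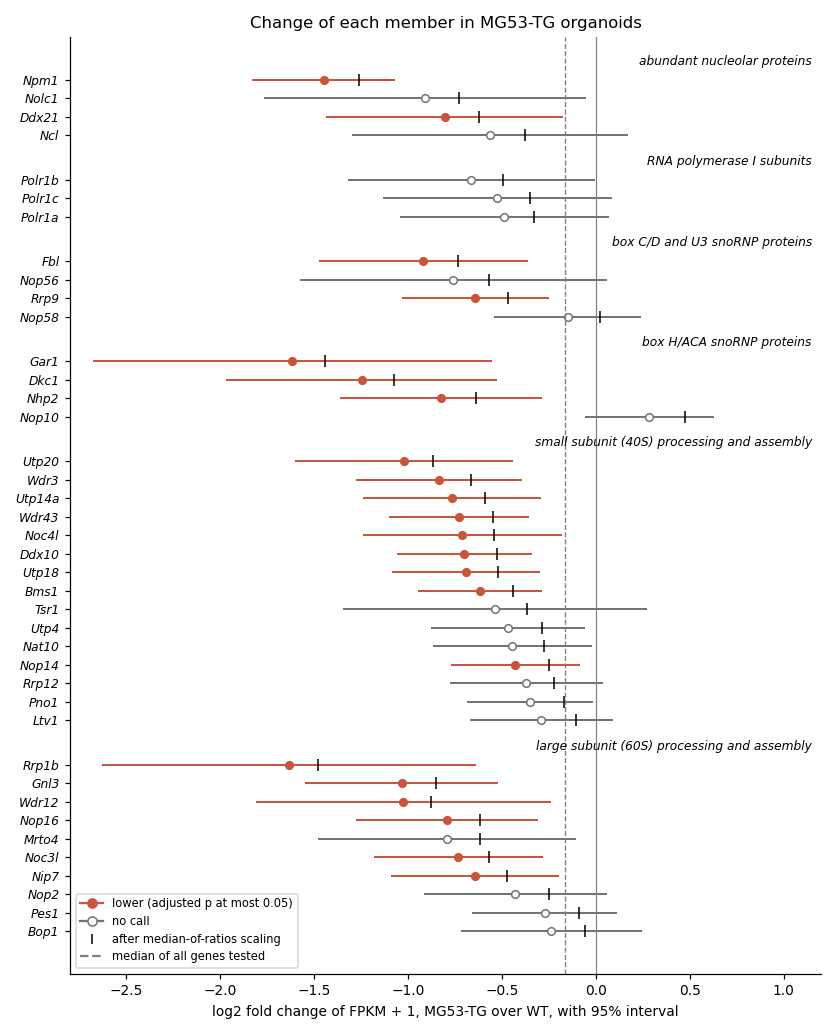
Log2 fold change of FPKM + 1 (MG53-TG over WT, horizontal axis) with its 95% interval for each of the 40 members tested, ordered by role. Filled red points are the 22 members with an adjusted p at most 0.05, open grey points have no call, black ticks are values after median-of-ratios scaling, and the dashed line is the median of all genes at -0.17. Nop10 alone has its point on the right of 0.

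Large subunit factors were lower in 6 of 10 cases and higher in none, with a median log2 fold change of -0.76 (all genes: 28.8% lower, median -0.17). Rrp1b (a nucleolar protein of the large subunit precursor, chr17:32036100-32062865, plus strand) had the largest log2 fall of the 40 members tested in the main fit. With quantile normalization Npm1 fell more (-1.58 against -1.49), and so did Gar1 when its end was used (-2.63). Rrp1b went from 14.8, 15.8, 15.6 and 15.2 FPKM in WT to 7.91, 9.47, 2.40 and 1.43 FPKM in MG53-TG. Every MG53-TG sample was below the narrow WT range (15.4 ± 0.416 against 5.30 ± 3.98 FPKM, log2 fold change -1.63 ± 0.44, adjusted p = 0.0157). Gnl3 (nucleostemin, a nucleolar GTPase known from stem and cancer cells; chr14:31012433-31019152, minus strand) was at 29.6, 31.9, 29.8 and 30.9 FPKM in WT and at 19.4, 20.3, 10.8 and 10.01 FPKM in MG53-TG. Its mean went from 30.6 ± 1.05 to 15.1 ± 5.49 FPKM without overlap (log2 fold change -1.03 ± 0.22, adjusted p = 0.00618). Nop16 and Noc3l fell by 0.79 and 0.73 on the log2 scale (adjusted p = 0.0158 for each).

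Wdr12, Pes1 and Bop1 form one complex of large subunit maturation, and their values differed. Wdr12 (chr1:60069785-60098645, minus strand) was at 13.5, 4.60, 6.70 and 5.91 FPKM in WT and at 3.14, 5.64, 1.85 and 2.22 FPKM in MG53-TG, so that MG53-TG sample 2 lay within the WT range. Its call (log2 fold change -1.03 ± 0.34, adjusted p = 0.0383) was lost in 11 of 19 alternatives, among them the starts alone (-0.56, adjusted p = 0.170) and leaving out WT sample 1, 3 or 4 or MG53-TG sample 1, 3 or 4 (adjusted p 0.0609 to 0.102). A second, upstream end was listed only in WT sample 1 (10.2 FPKM) and MG53-TG sample 2 (3.58 FPKM), and at the annotated last exon alone the values were 3.32 to 6.70 FPKM in WT and 1.85 to 3.14 FPKM in MG53-TG, without overlap (exact permutation p = 0.0286).

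Pes1 (chr11:3963975-3980004, plus strand), the highest large subunit factor, was at 26.1, 40.2, 36.6 and 35.9 FPKM in WT and at 33.0, 33.0, 24.5 and 23.6 FPKM in MG53-TG, with overlap (log2 fold change -0.27 ± 0.17, 95% interval -0.66 to 0.11, adjusted p = 0.217). Bop1 (chr15:76452989-76477277, minus strand) was at 19.5, 18.4, 13.8 and 16.5 FPKM in WT and at 17.5, 19.6, 11.3 and 10.4 FPKM in MG53-TG. The groups of Bop1 overlapped as well (log2 fold change -0.24 ± 0.21, 95% interval -0.71 to 0.24, adjusted p = 0.386). Nip7 fell by 0.64 on the log2 scale (adjusted p = 0.0267, and 0.0618 to 0.0709 without WT sample 1 or 2 or MG53-TG sample 3 or 4). Mrto4, a paralog of the stalk protein that it precedes on the subunit, and the methyltransferase Nop2 had log2 fold changes of -0.79 and -0.43 (adjusted p = 0.0586 and 0.130). Without MG53-TG sample 2 both passed (adjusted p = 0.0486 and 0.0309), and Mrto4 passed also without MG53-TG sample 1 (0.0179).

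The MG53-TG samples differed among themselves more than the WT samples did. Relative to the WT mean, the median member was at 107%, 103%, 91.9% and 97.6% in WT samples 1 to 4 and at 74.1%, 75.8%, 48.2% and 40.9% in MG53-TG samples 1 to 4. MG53-TG sample 4 had the lowest of the 8 values in 25 members and sample 3 in 11. In 35 of 40 members, samples 3 and 4 were both below samples 1 and 2, an order seen in 41.9% of all genes tested. The exceptions were Ncl, Polr1a, Polr1c, Nop58 and Gar1. The coefficient of variation had a median of 11.99% in WT and 30.3% in MG53-TG, and it was larger in MG53-TG for 36 of 40 members. Over the 10834 genes for which it could be computed in both groups, its median was 13.8% in WT and 21.7% in MG53-TG, and it was larger in MG53-TG for 68.2% of them, so the wider spread was not limited to the members. Without MG53-TG sample 3 or 4, 17 and 15 members were lower, with a median log2 fold change of -0.64 and -0.55, and without MG53-TG sample 1 or 2, 26 members were lower in each case. The share of all genes called lower moved the same way, to 22% and 23.7% without sample 3 or 4 and to 29.4% and 31.7% without sample 1 or 2.

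**Figure D4:**
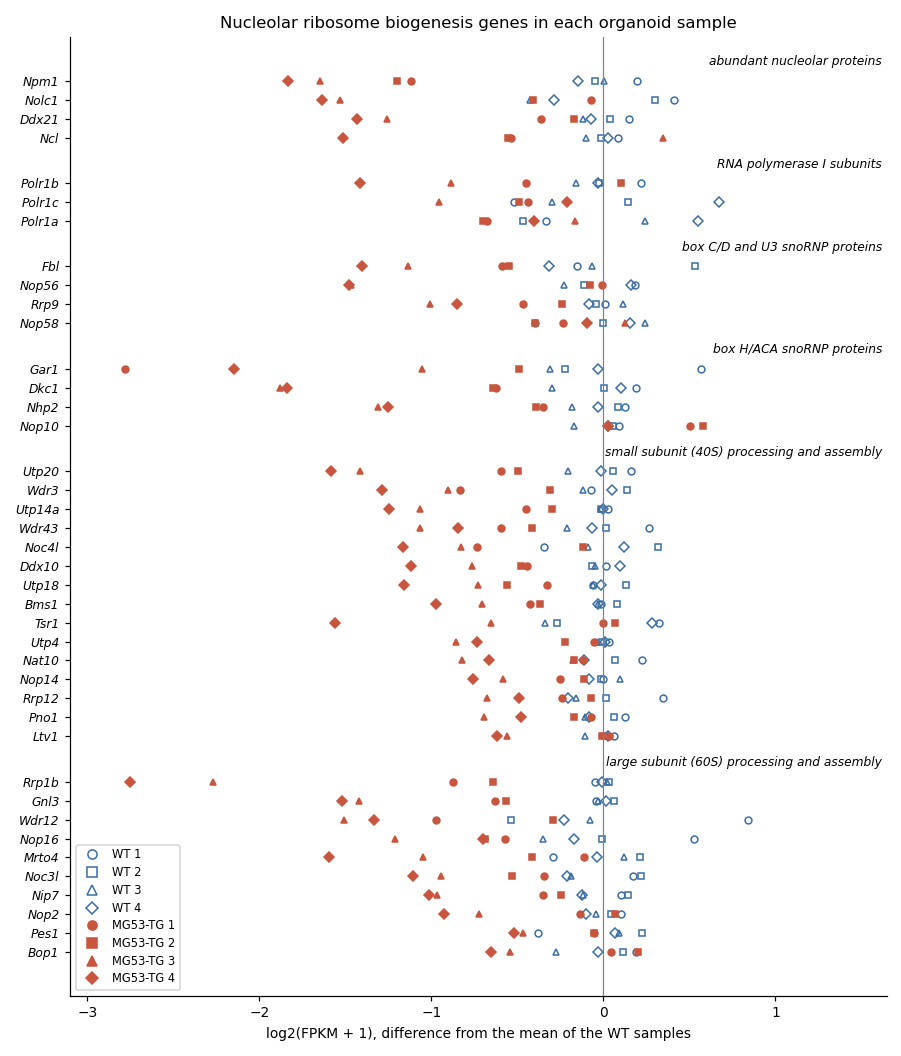
Level of each of the 40 members tested in each sample, as log2(FPKM + 1) minus the mean of the 4 WT samples (horizontal axis), ordered by role. Open blue symbols are WT samples 1 to 4 and filled red symbols MG53-TG samples 1 to 4. MG53-TG samples 3 (triangle) and 4 (diamond) are the lowest in most rows.

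Ribosome biogenesis genes that are not members were read from 5 further lists, also chosen with earlier results of these data known. Of 125 tested, 67 were lower and none higher in limma (none higher at an unadjusted p under 0.05), with a median log2 fold change of -0.54. The lower share was 53.6%, beside 28.8% of all genes. Without MG53-TG sample 3, 42 were lower (33.6%), beside 22% of all genes. By list, 7 of 13 genes of RNA polymerase I transcription were lower, 7 of 9 of snoRNA particle assembly, 17 of 37 small subunit factors, 26 of 51 large subunit factors and 10 of 15 genes of RNA trimming and decay. After median-of-ratios scaling 45 were lower and 2 higher, and the lower share was 36.0%, beside 20.2% of all genes.

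The 3 largest falls among them were of Lyar, Tcof1 and Xrn2. Lyar, a nucleolar growth regulator, was at 37.8 to 48.9 FPKM in WT and at 18.2, 18.4, 7.15 and 5.85 FPKM in MG53-TG (log2 fold change -1.84 ± 0.34, adjusted p = 0.00315). Tcof1 (treacle, a nucleolar partner of RNA polymerase I) was at 12.9 to 16.5 FPKM in WT and at 6.25, 8.77, 2.76 and 1.86 FPKM in MG53-TG (-1.61 ± 0.35, adjusted p = 0.00661). Xrn2, an exonuclease that trims ribosomal RNA and snoRNAs, was at 37.9 to 42.4 FPKM in WT and at 10.04 to 15.9 FPKM in MG53-TG (-1.57 ± 0.13, adjusted p = 4.75e-05).

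MYC binds the letters CACGTG, the E-box, and is the classic activator of this gene group. Myc itself was at 28.0, 27.3, 21.9 and 32.2 FPKM in WT and at 17.8, 15.5, 10.2 and 8.07 FPKM in MG53-TG, without overlap (log2 fold change -1.08 ± 0.24, adjusted p = 0.00644). Of 11 genes of the MYC network, 4 were lower (Myc, Mycl, Mxd1 and Mga) and 2 were higher, shares of 36.4% and 18.2% beside 28.8% and 15.6% of all genes. The higher ones were Mxd4 (1.10 ± 0.15, adjusted p = 0.000702) and Mlx (0.53 ± 0.16, adjusted p = 0.0240), which code for dimer partners within the network.

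Promoter windows from RefSeq (GRCm38.p6, 250 bases before to 50 after the start) were matched by symbol for 37 of 41 members, in 40 windows. The letters CACGTG, a palindrome read the same on both strands, were in 9 of 40 windows (22.5%). They were in 7.15% of 32851 windows of 27025 annotated genes, which include genes not tested here. The share among the genes tested was not counted, so these shares have unlike backgrounds. The 5 windows printed here, 90 bases each on the strand of the gene, are those of the 3 called members with the motif (Utp20, Wdr43 and Utp18) and of Pno1 and Pes1, the highest of their roles. Capitals mark the motif.
Utp20 (chr10:88826765-88826854, minus strand): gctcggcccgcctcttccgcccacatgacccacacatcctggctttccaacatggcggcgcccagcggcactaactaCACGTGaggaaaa
Wdr43 (chr17:71616175-71616264, plus strand): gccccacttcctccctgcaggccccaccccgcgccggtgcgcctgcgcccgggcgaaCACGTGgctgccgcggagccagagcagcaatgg
Utp18 (chr11:93885739-93885828, minus strand): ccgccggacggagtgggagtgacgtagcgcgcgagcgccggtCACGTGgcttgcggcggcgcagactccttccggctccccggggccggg
Pno1 (chr11:17211540-17211629, minus strand): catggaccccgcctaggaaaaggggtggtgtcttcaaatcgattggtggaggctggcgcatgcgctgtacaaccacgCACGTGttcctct
Pes1 (chr11:3963935-3964024, plus strand): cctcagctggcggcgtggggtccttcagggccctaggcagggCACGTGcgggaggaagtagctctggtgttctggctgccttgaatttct
The first base of the motif was at +38 in Utp20 and Pno1, +18 in Wdr43, -20 in Utp18 and +3 in Pes1, counted from +1 at the start. Of the 9 members with the motif (also Nop2, Utp4, Ltv1 and Tsr1), 3 were lower (33.3%, near the 28.8% of all genes), with a median log2 fold change of -0.47. Of the 27 tested members whose windows lacked these letters, 17 were lower, with a median of -0.73, and the difference between these sets was not tested. A match of letters is not a bound site.

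Markers of cell types also differed between the groups (of all genes, 28.8% were lower and 15.6% higher). All 8 stem cell markers were measured and 6 were lower, with a summed level of 523 to 696 FPKM in WT and 66 to 309 FPKM in MG53-TG, and 14 of 18 proliferation genes were lower (847 to 909.5 against 177 to 602 FPKM). Lgr5 was at 40.5 to 54.0 FPKM in WT and at 7.90 to 20.5 FPKM in MG53-TG, and Mki67 at 56.6 to 70.7 and 5.77 to 32.6 FPKM. MG53-TG samples 3 and 4 were the lowest for both lists (stem cell 102 and 65.7 FPKM, proliferation 268 and 177 FPKM). So they were for the members, with 801 and 639 FPKM summed over the 40, against 1112 and 1122 FPKM in samples 1 and 2. Npm1 was the largest part of the member sum in each sample, with 282, 267, 196 and 172 FPKM in MG53-TG samples 1 to 4. All 12 enterocyte markers were higher, at 9236 to 12354 FPKM summed against 795 to 936 FPKM in WT. The part of these markers in the levels of the members was not tested.

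Of the secretory markers, 6 of 6 Paneth genes tested and 6 of 8 goblet genes were lower and 5 of 7 enteroendocrine genes higher. Ang4 and Neurod1 had no value in any sample. The goblet list summed to 781 to 894 FPKM in WT and to 214, 292, 472 and 559 FPKM in MG53-TG samples 1 to 4. Samples 3 and 4 were thus the highest of MG53-TG there, unlike for the members. The Paneth sums in MG53-TG were 393, 460, 298 and 262 FPKM in the same order. The study's text reports lower stemness and absorptive markers and higher secretory markers in MG53;Lgr5 crypt organoids. The enterocyte, Paneth and goblet lists here ran the other way, and the stem cell and enteroendocrine lists the same way. The marker genes used in the study were not compared. No tuft gene passed the filter on low values, and that list summed to at most 1.73 FPKM in any sample. Of 3 mesenchyme genes tested none was lower. Col1a2 and Col3a1 were at 0 in WT and passed the filter only through MG53-TG, so their calls as higher are not read as a result. Their MG53-TG means were 1.24 and 1.26 FPKM over the samples with a value. In MG53-TG sample 1 the list sum was that of Vim alone (1.31 FPKM). The list sums were 1.799 to 3.24 FPKM in WT and 1.31 to 5.10 FPKM in MG53-TG. The single immune gene tested, Cd68, was lower (log2 fold change -1.84, adjusted p = 0.000565), with list sums of 3.77 to 9.24 FPKM in WT and 0.609 to 1.47 FPKM in MG53-TG. Of these lists Dclk1, Pdgfra, Acta2, Cd79a and Csf1r had no value in any sample, which is not a measured level of 0. Cytosolic ribosomal protein genes, the partners of the ribosomal RNA that the members process, were lower in 43 of 79 tested and higher in none, with a median log2 fold change of -0.31, a lower share of 54.4% beside 28.8% of all genes. After median-of-ratios scaling 14 of them were lower and 1 higher, and the lower share of 17.7% was then under the 20.2% of all genes.

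**Figure D5:**
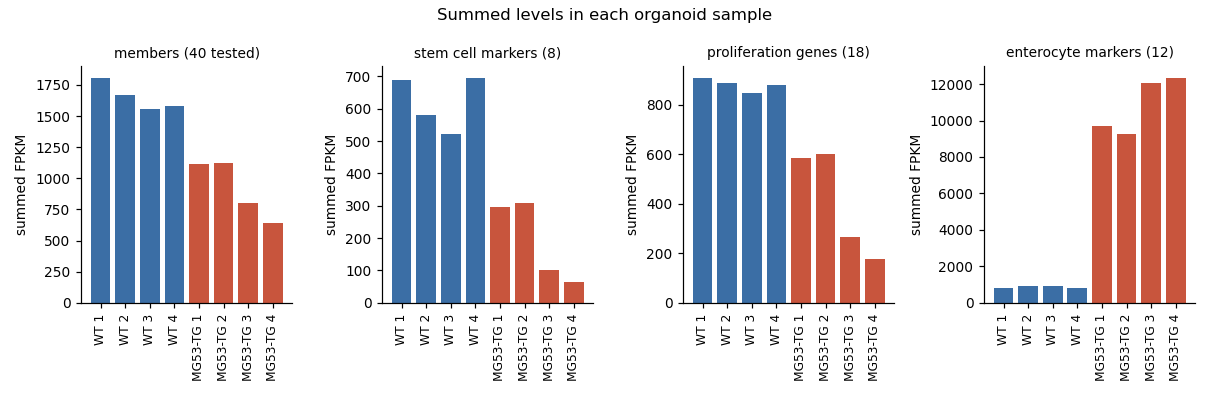
Summed FPKM (vertical axis, from 0) in each of the 4 WT (blue) and 4 MG53-TG (red) samples for the 40 members tested, 8 stem cell markers, 18 proliferation genes and 12 enterocyte markers. Members, stem cell and proliferation sums are lower in all MG53-TG samples and lowest in samples 3 and 4. The enterocyte sum is higher in all MG53-TG samples. Npm1 is the largest part of the member sum in each sample.

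The choice of transcription start and intron retention was also read for the members. A share was tested only if its mean over all samples was between 5% and 95%. In 10 members with at least 2 starts the share of the leading start could be tested, and none differed in limma, against 1.18% of 2626 genes, with 2 members at an unadjusted p under 0.05. These were Nop2, whose leading start held 97.9% to 99.3% in WT and 80.8% to 95.5% in MG53-TG (adjusted p = 0.272), and Gnl3, at 95.5% to 96.2% and 88.0% to 93.0% (adjusted p = 0.377). Both were without overlap between groups, but their WT means (98.6% for Nop2 and 95.9% for Gnl3) were above the 95% limit. They entered the test only through their lower MG53-TG shares, so these differences are not read as a result. In MG53-TG samples 2 and 3, the lowest for Nop2, 5.18 and 2.24 FPKM came from a start that matched no annotated exon and was listed in no other sample, and by its end rows Nop2 was lower (log2 fold change -0.57, adjusted p = 0.0476). For the 4 introns of members that could be tested, in Nat10, Utp4, Nip7 and Rrp9, none differed, against 0.27% of 370 introns, and 1 of 4 had an unadjusted p under 0.05. The retained share of that intron, in Rrp9 (chr9:106483037-106483118), was 0.859% to 4.73% in WT. In the MG53-TG samples it was 6.22%, 11.3%, 13.0% and 50.3% in rising order (limma adjusted p = 0.2998). The WT means of the Rrp9, Nip7 and Nat10 introns (3.15%, 3.07% and 0.524%) were under the 5% limit. These introns entered the test only through MG53-TG, so the Rrp9 difference is not read as a result.

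Of 37 members with both start and end rows, 28 had mean start and end sums within 2 times of each other, and 9 did not. In 8 of these 9 the start sum was the larger (Fbl, Nop56, Rrp9, Rrp1b, Wdr43, Polr1a, Polr1b and Nat10, with means of 78.3 and 24.6 FPKM for Nop56), and in Nop16 the end sum was. Within the 28, 8 of 224 sample values differed by more than 1.5 times, in 4 genes: Gar1 and Nolc1 (3 samples each), Ncl and Wdr12 (1 sample each). With end sums in place of start sums the log2 fold change was -2.63 for Gar1 (adjusted p = 0.00738), -1.48 for Ncl (0.0646) and -0.45 for Nolc1 (0.225). Npm1 gave -1.45 by its start and -1.39 by its ends, with adjusted p of 0.000268 and 0.000247.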

How the data were processed

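RNA was sequenced from 8 organoid samples. The submitters' processing notes name cutadapt 1.9.1, HISAT2 2.0.1, HTSeq 0.6.1 and the build mm10. The authors deposited FPKM per transcript event (start, end, retained intron and others) and sample. The tool that made these event tables is not given in the sources used here. The smallest FPKM was 1e-06, so whole reads could not be recovered and read depth is unknown.

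Rows were placed on genes by exon boundaries of GENCODE vM21 (GRCm38). Rows that matched another gene alone were moved to it, where the written design only left them out, and ambiguous rows were dropped. A gene's value was the sum over its starts, or over its ends where that mean was higher. A row absent from a sample was missing if the median of the others of its group was at least 0.5 FPKM, and 0 otherwise.

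Log2(FPKM + 1) was compared between 4 WT and 4 MG53-TG samples with limma 3.58.1 (eBayes with trend, R 4.3.3). Genes whose mean reached 0.5 FPKM were tested (10992), and p-values were adjusted by Benjamini-Hochberg with a threshold of 0.05. Such fold changes understate those of low genes. Two-sided exact permutation tests ran over 70 relabellings. Shares of starts and introns were compared on the arcsine scale with a minimum of 2 FPKM and a mean share between 5% and 95% over all samples. Fits were tested on simulated data. Python 3.11.15 did the rest.

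The members and lists were chosen with earlier results of these data known. Values in every sample are given for the highest member of each role, the 6 largest falls, the 3 highest fold changes and, chosen after their values were seen, Ncl, Fbl and Utp20. Alternatives were another pseudocount (0.1), filters, scalings, row choices, a replicate block and leaving out each sample, and, added after seeing the data, annotated rows only.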

Additional observations from a re-analysis of the deposited data

Results flagged for a closer look

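A single sample stood far from the other 3 of its group in 2 of 87 groups of 4 samples examined, where chance gives about 4.35. Bms1 was at 16.1 FPKM in WT sample 2, above 14.9 to 15.0 FPKM in the other WT samples. Lgr5 was at 54.0 FPKM in WT sample 4, above 40.5 to 42.3 FPKM in the other WT samples.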

How the results depend on the processing

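The count of lower members was within 1.5 times of 22 in all 19 alternatives, from 15 to 26, and of 748 refitted member values 746 kept their direction. The exceptions were Nop58 after median-of-ratios scaling (0.024) and quantile normalization (0.0063). Of the 22 lower members, 14 passed in every alternative run for them, and 8 of the 18 others passed in none. With median-of-ratios scaling 1 member and 2 other pathway genes were higher, and with quantile normalization 2 other pathway genes were higher. With these scalings the all-gene median went up by 0.16 and 0.11, and they moved the share of higher calls from 35.1% to 50.1% and 44.7%. Leaving out 1 sample gave 42 to 77 lower genes of the other pathway lists, 15 to 26 lower members, 16 to 33 genes with a changed start share and 1 to 3 introns with a changed retained share. A minimum of 5 FPKM gave 17 genes with a changed start share. Samples of the same number did not deviate together (correlations 0.0891, -0.0026, 0.0962 and -0.0604). With the replicate block 23 members were lower, 20 of them among the 22, with Nolc1, Pno1 and Nat10 gained (adjusted p = 0.00938, 0.0468 and 0.0350) and Wdr12 and Nop14 lost (0.0567 for each), and 0 start shares and 0 introns passed. The causes were not tested. Without read depth, the counting error of low members such as Rrp12 or Polr1a is unknown.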
